A study of Homo sapiens with 22 samples.

Results

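The AP-1 and immediate early genes FOS, FOSB, FOSL2, JUN, JUNB, JUND, EGR1, IER2, DUSP1 and IER3 were taken by symbol from the RNA-seq tables of MOLM-13 and NB4 cells, where they are 10 of 20411 genes. AP-1 is a dimer of basic leucine zipper proteins. JUN proteins pair with each other or with FOS proteins, whereas FOS proteins need a JUN partner. Most of these genes are immediate early genes, which are transcribed within minutes of a signal without new protein synthesis, and several of their mRNAs are short-lived because of AU-rich elements. In myeloid cells, AP-1 and EGR1 are known for their part in monocyte and macrophage differentiation. JUND differs from the others in being expressed at a steady level in many cells.

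MOLM-13 is an acute myeloid leukemia cell line and NB4 is an acute promyelocytic leukemia cell line. Each line was treated for 48 hours with 2 μM FP54, a degrader that joins a ligand of the m6A demethylase FTO to a ligand of the VHL E3 ligase, or with DMSO as the mock treatment. There were 3 libraries for each of the 4 groups, and neither the labels nor the methods say whether replicates were separate cultures, so p-values measure only the spread between these libraries, which may be technical. The assignment of 1 table to NB4 rests on the table's name. The values are RPKM, reads scaled by gene length and library total. The reads recovered from them totalled 16555644, 16313396 and 17362379 in DMSO replicates 1 to 3 of MOLM-13 cells and 19207419, 5836560 and 12038702 in FP54 replicates 1 to 3. In NB4 cells the totals were 20662774, 21312955 and 22349822 with DMSO and 10602309, 11644424 and 13079301 with FP54, so that the treated libraries were the shallower ones there. All 10 myeloid markers examined, among them CD33, SPI1 and MPO, were at 1 RPKM or more in every library of both lines. Of 10 markers of other cell types, PECAM1, an endothelial marker that monocytes also express, alone reached 1 RPKM in MOLM-13 cells, and PECAM1, EPCAM and CD3D did so in NB4 cells, while 3 to 5 of the 10 were at 0 in each MOLM-13 library and 0 to 5 in each NB4 library.

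Each gene was compared between FP54 and DMSO on log2(RPKM + 0.1) with limma, over genes with a mean of at least 1 RPKM in that line. A gene was called changed where p was below 0.01 and its log2 fold change was 0.5 or more in size, the cutoff of the study's methods, and Benjamini-Hochberg adjusted p-values over all genes tested are given beside it. The added 0.1 RPKM lowers the fold change of genes at low levels. The 2 tables were normalized separately, so levels are set side by side across the lines without a test.

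The promoters of JUN, JUND and EGR1 are shown because these 3 members were called changed in MOLM-13 cells. Each runs from 250 bases before to 50 bases after the gene's start in RefSeq (GRCh38.p14), and the table used held 9 of the 10 members. JUN lies at chr1:58783998-58784297 on the minus strand, JUND at chr19:18281573-18281872 on the minus strand and EGR1 at chr5:138465229-138465528 on the plus strand. Capitals mark the cAMP response element TGACGTCA, its shorter core TGACG (on the other strand read as CGTCA) and the CArG box, the site of the serum response factor SRF.
JUN: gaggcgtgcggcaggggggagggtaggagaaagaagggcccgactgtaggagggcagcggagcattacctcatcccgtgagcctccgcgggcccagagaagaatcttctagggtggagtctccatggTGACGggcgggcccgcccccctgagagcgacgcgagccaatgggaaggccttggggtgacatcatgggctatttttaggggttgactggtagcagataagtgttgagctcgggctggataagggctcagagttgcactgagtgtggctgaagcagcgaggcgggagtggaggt
JUND: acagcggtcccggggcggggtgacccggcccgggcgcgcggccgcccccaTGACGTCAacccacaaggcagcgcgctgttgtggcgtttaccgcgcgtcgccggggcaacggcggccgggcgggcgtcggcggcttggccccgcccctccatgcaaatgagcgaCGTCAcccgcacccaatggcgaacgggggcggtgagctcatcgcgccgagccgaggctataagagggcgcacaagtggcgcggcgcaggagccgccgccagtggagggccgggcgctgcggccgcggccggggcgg
EGR1: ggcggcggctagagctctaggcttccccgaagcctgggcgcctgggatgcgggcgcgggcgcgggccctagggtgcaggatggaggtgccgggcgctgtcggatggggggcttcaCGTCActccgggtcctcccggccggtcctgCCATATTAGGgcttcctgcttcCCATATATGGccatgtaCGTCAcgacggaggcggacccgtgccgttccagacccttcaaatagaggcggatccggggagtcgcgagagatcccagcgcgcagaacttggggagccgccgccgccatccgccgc

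These motifs were picked with the sequences in view, both strands were searched, and a match is a description only. The core TGACG, which is also part of TGACGTCA, was in 9 of the 9 member promoters and in 24.6% of 35116 promoters of the same length. TGACGTCA itself was in 2 of 9, JUND from −200 to −193 and DUSP1 from −125 to −118 relative to the start, against 1.85% of all. The AP-1 element TGACTCA was in 1 of 9, in FOSL2 from +5 to +11, against 4.95%. EGR1 held 2 CArG boxes, from −105 to −96 and from −83 to −74, and the other 8 promoters held none, against 1.29% of all promoters with at least 1. The EGR site GCGGGGGCG was in 0 of 9 and in 5.07% of all, and TATAAA was in 4 of 9 (FOS, FOSB, JUNB and DUSP1) and in 11.5%.

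In MOLM-13 cells, JUND was the most abundant member with DMSO at 275 ± 15.4 RPKM (SD, n = 3), and 0.461% of all genes had a higher mean. JUNB followed at 83.9 ± 2.48 RPKM, IER2 at 71.3 ± 5.73, FOS at 43.3 ± 10.5 and FOSL2 at 29.4 ± 3.50 RPKM, with no overlap between neighbours in this order. JUN at 17.6 ± 4.52 and EGR1 at 15.4 ± 7.36 RPKM overlapped. IER3 at 2.43 ± 0.850, DUSP1 at 1.75 ± 0.474 and FOSB at 1.62 ± 0.258 RPKM were lowest, and each overlapped the next. In NB4 cells with DMSO, IER2 at 45.1 ± 9.94, JUNB at 35.6 ± 7.52 and JUND at 32.6 ± 5.93 RPKM headed the order and overlapped with their neighbours. JUN at 20.2 ± 2.73, FOSL2 at 10.2 ± 1.08, EGR1 at 5.86 ± 1.74, FOS at 1.24 ± 0.116 and DUSP1 at 1.03 ± 0.0444 RPKM followed without overlap. IER3 at 0.478 ± 0.277 and FOSB at 0.135 ± 0.0341 RPKM were lowest and overlapped. In this order FOS stood at place 4 in MOLM-13 cells and at place 7 in NB4 cells. With FP54, EGR1 at 32.6 ± 10.4 RPKM overlapped both FOS and FOSL2 in MOLM-13 cells, and JUN at 43.2 ± 1.80 RPKM overlapped JUND at 44.1 ± 3.56 RPKM in NB4 cells.

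**Figure D1:**
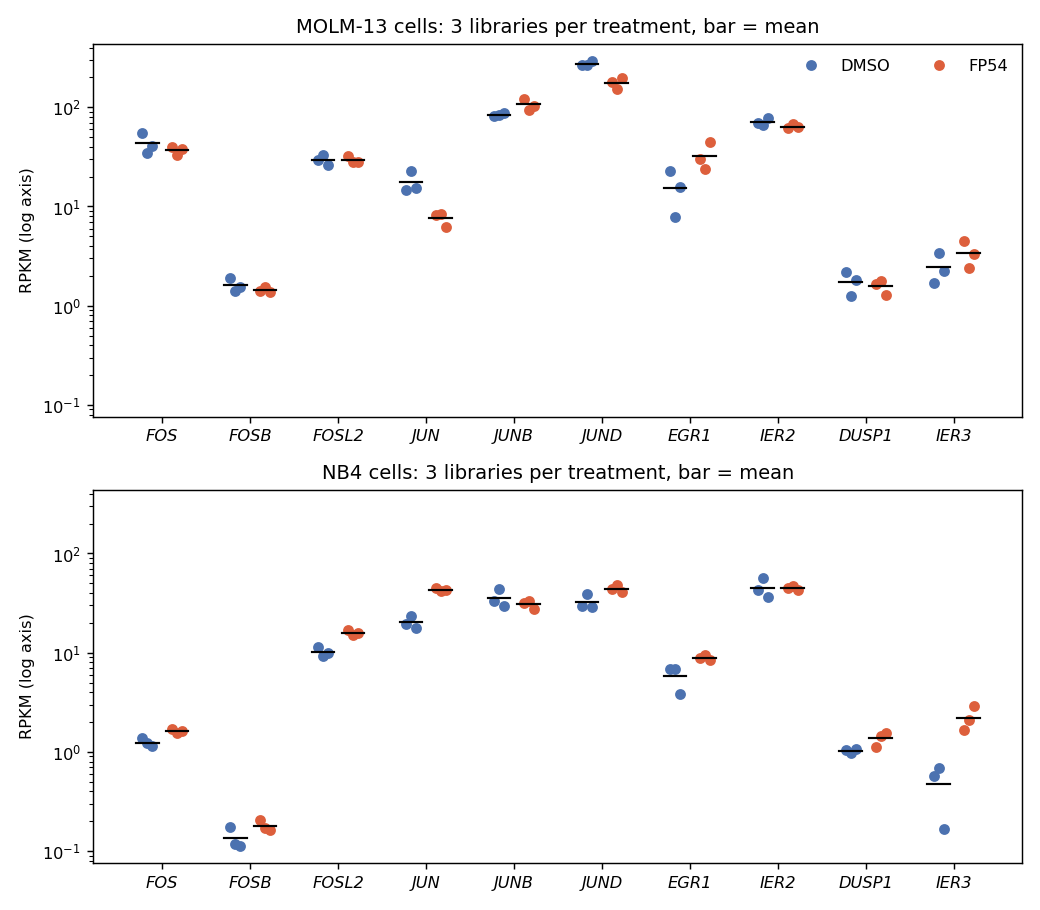
RPKM of the 10 members (log axis) in each of the 3 DMSO and 3 FP54 libraries of MOLM-13 cells (top) and NB4 cells (bottom), with bars at the group means. JUN lies lower with FP54 in MOLM-13 cells (7.61 against 17.6 RPKM) and higher with FP54 in NB4 cells (43.2 against 20.2 RPKM), and FOS stands near 40 RPKM in the first line and between 1.14 and 1.69 RPKM in the second.

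With FP54, JUN and JUND fell and EGR1 rose in MOLM-13 cells, whereas JUN, FOSL2, EGR1 and IER3 rose in NB4 cells. In MOLM-13 cells all 10 members were tested and 2 were called lower, where 9.04% of the 9710 genes tested were called lower, and 1 was called higher, where 9.3% were (18.3% in either direction). The libraries of the 2 treatments did not overlap for 4 members there, JUN, JUNB, JUND and EGR1, against 37.1% of genes, and 3 had an adjusted p below 0.05, against 19.2%. In NB4 cells 9 members were tested, since FOSB was under the filter, and 0 were called lower against 10.7% of the 9853 genes tested, while 4 were called higher against 18.6% (29.3% in either direction). In this line 7 of the 9 did not overlap, against 60.5% of genes, and 6 had an adjusted p below 0.05, against 51.8%. The calls of JUN and JUND in MOLM-13 cells and of JUN, FOSL2 and IER3 in NB4 cells were also made with each of the 6 libraries left out in turn. The median log2 fold change of the members was −0.13 in MOLM-13 cells, beside 0.0033 over all genes tested, and 0.45 in NB4 cells, beside 0.07. In NB4 cells FOS, IER2 and DUSP1, which were not called, changed sign under one of the other scalings, and the other members tested did not. The median of all genes tested came to −0.13 with median-ratio scaling and −0.03 with quantile normalization, and 2008 genes were then called lower and 1184 higher with the first, and 1365 and 1281 with the second, against 1050 and 1834 with the RPKM as deposited. In these bulk samples, fewer cells of a type and less RNA per cell cannot be told apart.

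**Figure D2:**
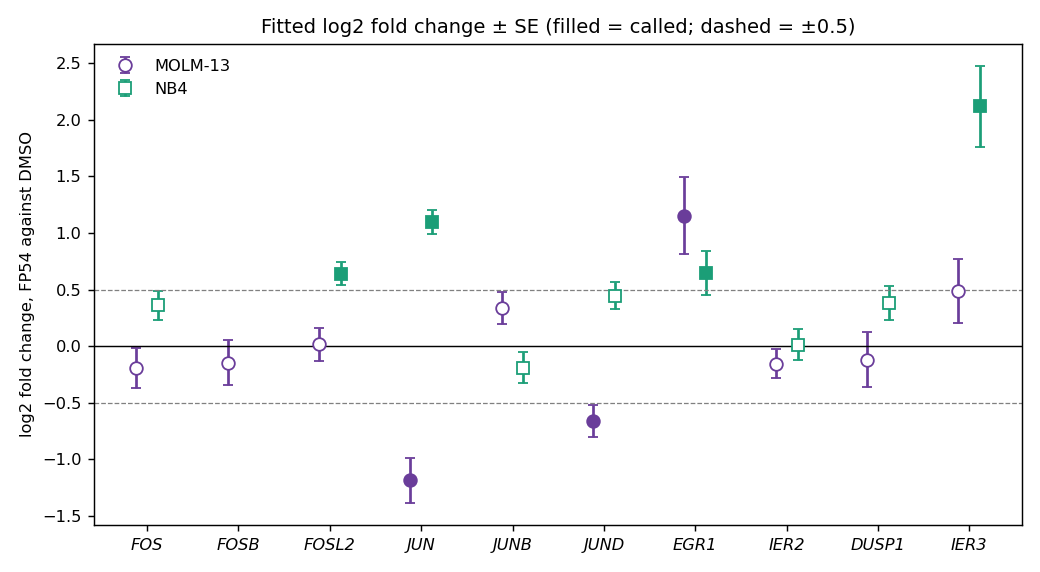
Fitted log2 fold change of FP54 against DMSO (points) with its standard error (bars) for each member in MOLM-13 cells (circles) and NB4 cells (squares), filled where the gene was called and with dashed lines at a log2 fold change of 0.5 in either direction. JUN and JUND lie below 0 in MOLM-13 cells and above 0 in NB4 cells, EGR1 lies above 0 in both lines, and FOSB is missing for NB4 cells because it was not tested.

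JUN encodes c-Jun, the JUN protein with the strongest transactivation, and its gene lies on chromosome 1 from 58776845 to 58784048 of hg38, in a canonical transcript of 1 exon. In MOLM-13 cells it was at 14.8, 22.9 and 15.3 RPKM in DMSO replicates 1 to 3 and at 8.30, 8.38 and 6.15 RPKM in FP54 replicates 1 to 3. The FP54 libraries all lay below the DMSO libraries, and the log2 fold change was −1.19 (SE 0.20, adjusted p = 0.00543 from limma). Among the genes tested, 1.78% had a fold change at least as low. In NB4 cells JUN was at 19.6, 23.2 and 17.9 RPKM with DMSO and at 45.1, 41.6 and 42.8 RPKM with FP54. Here the FP54 libraries all lay above the DMSO libraries, with a log2 fold change of 1.10 (SE 0.10, adjusted p = 1.49e-05 from limma), and 5.68% of genes had a fold change at least as high. The effect of FP54 on JUN was larger by 2.28 on the log2 scale in NB4 than in MOLM-13 cells (SE 0.24, adjusted p = 1.94e-05 from limma's interaction over 8849 genes tested in both lines).

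JUND, on chromosome 19 from 18279694 to 18281622, encodes the JUN protein that slows growth in several cell types. In MOLM-13 cells it was at 269, 264 and 293 RPKM with DMSO and at 179, 151 and 196 RPKM with FP54. The groups did not overlap, and the log2 fold change was −0.66 (SE 0.14, adjusted p = 0.0134 from limma). In NB4 cells JUND was at 29.4, 39.4 and 28.9 RPKM with DMSO and at 44.1, 47.6 and 40.5 RPKM with FP54. The groups did not overlap here either, but the log2 fold change of 0.45 (SE 0.12, adjusted p = 0.0112 from limma) was under the cutoff of 0.5. It passed the cutoff without DMSO replicate 2 (0.59) or FP54 replicate 3 (0.51) and after quantile normalization (0.58), and with median-ratio scaling it was 0.25, with an adjusted p of 0.144 from limma. The FP54 effect differed between the lines by 1.11 (SE 0.19, adjusted p = 0.00145 from limma's interaction).

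JUNB, on chromosome 19 from 12791486 to 12793315, encodes a JUN protein that can restrain c-Jun at shared targets and that limits myeloid cell growth. It was at 82.2, 82.8 and 86.8 RPKM with DMSO and at 122, 94.9 and 103 RPKM with FP54 in MOLM-13 cells. These groups did not overlap, yet the log2 fold change of 0.34 (SE 0.14, adjusted p = 0.110 from limma) did not pass the test. In NB4 cells JUNB was at 33.3, 43.96 and 29.4 RPKM with DMSO and at 31.9, 33.2 and 27.4 RPKM with FP54, which overlapped, and the log2 fold change was −0.19 (SE 0.14, adjusted p = 0.274 from limma). The difference between the lines, −0.53 (SE 0.21, adjusted p = 0.105 from limma's interaction), did not pass either. The annotated span of JUNB overlaps that of HOOK2, and whether the counting used the strand is not given in the sources used here. The spans of FOSL2, IER2, DUSP1 and IER3 overlap annotated noncoding genes, to which the same limit applies.

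The makeup of the JUN family mRNA is given as shares of its summed level, with no test. In MOLM-13 cells the summed RPKM of JUN, JUNB and JUND was 377 ± 15.9 (SD, n = 3) with DMSO and 289 ± 30.5 with FP54. JUND held 73.0 ± 1.41% of this sum with DMSO and 60.5 ± 3.42% with FP54, JUNB held 22.3 ± 0.274% and 36.9 ± 2.98%, and JUN held 4.70 ± 1.28% and 2.66 ± 0.638%. None of these 3 shares overlapped between the treatments. In NB4 cells the sum was 88.4 ± 16.1 RPKM with DMSO and 118 ± 6.42 with FP54. JUN held 23.0 ± 1.08% and 36.6 ± 2.42% of it and JUNB held 40.1 ± 1.34% and 26.1 ± 1.21%, without overlap, whereas the shares of JUND, 36.9 ± 1.07% and 37.3 ± 1.39%, overlapped. With 3 libraries a group, 0.1 is the smallest two-sided p that exact permutation allows. The shares do not depend on the scaling of a library.

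**Figure D3:**
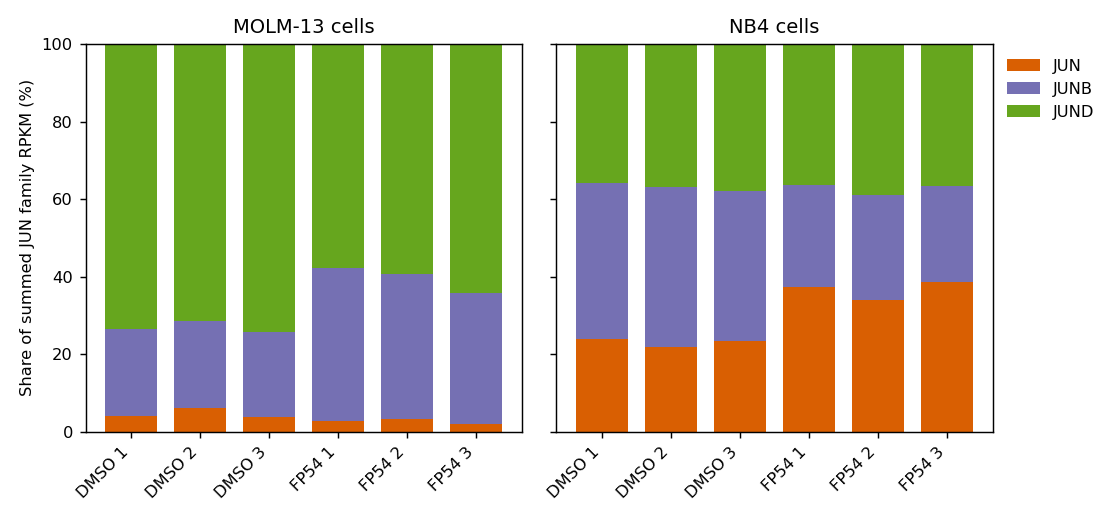
Share of the summed RPKM of the JUN family (%) held by JUN, JUNB and JUND in each library of MOLM-13 cells (left) and NB4 cells (right), as stacked bars that add to 100. JUND holds most of the sum in every MOLM-13 library (57.7 to 74.2%), and in NB4 cells the share of JUN is 21.8 to 23.8% with DMSO and 34.0 to 38.7% with FP54.

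The FOS family members provide the partners of JUN proteins and do not pair among themselves. FOS, on chromosome 14 from 75278826 to 75282230, was at 55.0, 34.6 and 40.4 RPKM with DMSO and at 40.2, 33.3 and 38.4 RPKM with FP54 in MOLM-13 cells. These groups overlapped, with a log2 fold change of −0.19 (SE 0.18, adjusted p = 0.468 from limma). In NB4 cells FOS was at 1.37, 1.22 and 1.14 RPKM with DMSO and at 1.69, 1.54 and 1.63 RPKM with FP54, on 57 to 90 reads per library. The groups did not overlap, but the log2 fold change of 0.36 (SE 0.13, adjusted p = 0.0390 from limma) was under the cutoff, and it was −0.11 after quantile normalization. The difference between the lines was 0.55 (SE 0.22, adjusted p = 0.110 from limma's interaction).

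FOSL2, on chromosome 2 from 28392448 to 28417317, encodes Fra-2, a FOS protein without the strong transactivation domain of c-Fos. In MOLM-13 cells it was at 29.4, 32.9 and 25.9 RPKM with DMSO and at 32.6, 28.0 and 28.3 RPKM with FP54, with a log2 fold change of 0.014 (SE 0.14, adjusted p = 0.955 from limma). In NB4 cells it rose from 11.4, 9.28 and 9.87 RPKM with DMSO to 17.0, 15.0 and 15.7 RPKM with FP54, a log2 fold change of 0.64 (SE 0.10, adjusted p = 0.000472 from limma). The groups overlapped in MOLM-13 cells and not in NB4 cells. With median-ratio scaling the NB4 value was 0.44, under the cutoff. The effects differed between the lines by 0.63 (SE 0.17, adjusted p = 0.0262 from limma's interaction), and the adjusted p was 0.0560 to 0.0886 when DMSO replicate 2 or 3 or FP54 replicate 1, 2 or 3 was left out of both lines. FOSB, on chromosome 19 from 45467995 to 45475179 and overlapping ERCC1, was at 1.36 to 1.91 RPKM over the 6 MOLM-13 libraries, with a log2 fold change of −0.15 (SE 0.20, adjusted p = 0.631 from limma). In NB4 cells it was at 0.113 to 0.204 RPKM on 11 to 20 reads per library and was not tested. FOS and FOSL2 held 57.8 ± 6.88% and 40.0 ± 6.98% of the summed FOS, FOSB and FOSL2 RPKM in MOLM-13 cells with DMSO. In NB4 cells with DMSO FOSL2 held 88.1 ± 0.692%, and with FP54 89.8 ± 0.135%, without overlap.

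EGR1, a zinc finger factor on chromosome 5 from 138465479 to 138469303 that takes part in macrophage differentiation, was called higher in both lines. Of the 8849 genes tested in both lines, 8.23% were called in both in any direction, and 0.938% were called in opposite directions. In MOLM-13 cells EGR1 was at 22.6, 7.90 and 15.8 RPKM with DMSO and at 29.9, 23.8 and 44.2 RPKM with FP54. DMSO replicate 1 lay just under FP54 replicate 2, and the log2 fold change was 1.15 (SE 0.34, adjusted p = 0.0415 from limma). In NB4 cells it was at 6.84, 6.90 and 3.85 RPKM with DMSO and at 8.91, 9.51 and 8.41 RPKM with FP54, a log2 fold change of 0.65 (SE 0.19, adjusted p = 0.0164 from limma). DMSO replicate 3 was the lowest NB4 library. Neither call was made in every fit. In MOLM-13 cells the call was lost without DMSO replicate 2 (0.74), FP54 replicate 1 (1.19) or FP54 replicate 3 (0.91), and in NB4 cells without DMSO replicate 3 (0.37) or FP54 replicate 1 (0.65), 2 (0.60) or 3 (0.69). Leaving out the filter on low values, or the trend of the spread with level in limma, lost the call in both lines, and in NB4 cells median-ratio scaling (0.45) and quantile normalization (0.52) lost it as well. The difference between the lines was −0.51 (SE 0.45, adjusted p = 0.490 from limma's interaction).

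IER3, on chromosome 6 from 30743199 to 30744548, encodes a short-lived protein that modulates kinase signaling and cell survival. In NB4 cells it was at 0.574, 0.695 and 0.166 RPKM with DMSO and at 1.68, 2.10 and 2.89 RPKM with FP54, on 5 to 51 reads per library. All FP54 libraries lay above the DMSO libraries, with a log2 fold change of 2.12 (SE 0.36, adjusted p = 0.000692 from limma). The DMSO mean was under 1 RPKM, so IER3 passed the filter in NB4 cells only through the FP54 libraries, and with no filter it was called as well. In MOLM-13 cells it was at 1.70, 3.36 and 2.22 RPKM with DMSO and at 4.52, 2.41 and 3.33 RPKM with FP54, which overlapped, and the log2 fold change was 0.49 (SE 0.28, adjusted p = 0.243 from limma). The difference of 1.63 (SE 0.52, adjusted p = 0.0475 from limma's interaction) lay close to the threshold, and 6 of 9 alternatives with all libraries lost it. It was 0.76 with a pseudocount of 1, 1.88 with one of 0.01, 1.49 with median-ratio scaling and 1.07 with quantile normalization, none of them at an adjusted p under 0.05, and the replicate block and the subtraction of the olfactory receptor level lost it too. It was 1.18, 1.44 and 1.44 without DMSO replicate 3, FP54 replicate 2 or FP54 replicate 3, with adjusted p from 0.128 to 0.150.

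DUSP1, on chromosome 5 from 172768096 to 172771195, encodes a phosphatase that switches off MAP kinases. It was at 1.25 to 2.19 RPKM over the 6 MOLM-13 libraries, with a log2 fold change of −0.12 (SE 0.24, adjusted p = 0.754 from limma). In NB4 cells it was at 1.03, 0.979 and 1.07 RPKM with DMSO and at 1.13, 1.45 and 1.56 RPKM with FP54, on 24 to 48 reads per library. These groups did not overlap, but the log2 fold change of 0.38 (SE 0.15, adjusted p = 0.0558 from limma) did not pass. It was −0.15 after quantile normalization, and without FP54 replicate 1 it passed the cutoff (0.51). IER2, on chromosome 19 from 13150411 to 13154911, is an immediate early gene whose product acts in the nucleus. Its log2 fold change was −0.16 (SE 0.13, adjusted p = 0.412 from limma) in MOLM-13 cells, at 61.9 to 77.8 RPKM, and 0.013 (SE 0.13, adjusted p = 0.941 from limma) in NB4 cells, at 36.6 to 56.0 RPKM. The effects on DUSP1 and IER2 differed between the lines by 0.50 (SE 0.28, adjusted p = 0.256) and 0.17 (SE 0.19, adjusted p = 0.602, both from limma's interaction).

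Of the 9 members tested in both lines, the effect of FP54 was higher in NB4 cells for 4 (JUN, JUND, FOSL2 and IER3), where 10.5% of 8849 genes passed in this direction, and lower for 0, where 3.75% did (14.2% in either direction). The median difference of the 9 was 0.55, beside 0.08 over all genes. JUN was the 1 member called lower in MOLM-13 cells and higher in NB4 cells, a pattern held by 0.768% of genes tested in both, and opposite calls of either kind were held by 0.938%. With median-ratio scaling, which lowered the median difference of all genes to −0.09, JUN and JUND passed higher and JUNB passed lower, at a difference of −0.70. Without DMSO replicate 3, FP54 replicate 2 or FP54 replicate 3 of both lines, 2 members passed higher, JUN and JUND, and without DMSO replicate 2 FOS passed in place of FOSL2. All 6 libraries of a line enter every member's comparison, so these values are not independent of each other.

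By the root mean square difference of log2 values, centred within each line, over the 12 libraries, FOS and DUSP1 lay nearest among the 9 members tested in both lines (0.195), followed by JUNB and IER2 (0.219). JUN and EGR1 lay farthest apart (1.01). Among all genes tested in both lines, TCEA3 (0.187), PDE4A (0.191) and STX1A (0.210) were most like JUN, whose own root mean square was 0.603 and whose median distance to a gene was 0.647. TCEA3 had log2 fold changes of −1.06 in MOLM-13 and 0.98 in NB4 cells, and PDE4A of −1.17 and 1.17. SCMH1, GEMIN8 and DGKD (0.0843 to 0.103) were most like FOS, and WDR5B, C21orf58 and PCYOX1L (0.272 to 0.284) were most like EGR1.

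The other AP-1 genes were FOSL1, BATF, BATF2, BATF3, ATF2, ATF3, ATF7 and JDP2, of which BATF2 was under the filter in both lines. In MOLM-13 cells 3 of the 7 tested were called lower and 0 higher, against 9.04% and 9.3% of all genes, with a median log2 fold change of −0.71. FOSL1, which encodes Fra-1, fell from 9.10, 4.84 and 7.88 RPKM with DMSO to 0.856, 1.91 and 2.20 RPKM with FP54, a log2 fold change of −2.12 (SE 0.33, adjusted p = 0.00454 from limma). ATF3, a stress-induced partner of JUN proteins, fell from 16.9, 16.7 and 17.8 RPKM to 8.81, 9.26 and 6.58 RPKM, a log2 fold change of −1.06 (SE 0.16, adjusted p = 0.00385 from limma). In NB4 cells 1 of 7 was called lower and 2 higher, against 10.7% and 18.6% of all genes, with a median of 0.33. FOSL1 was lower there too, at 11.4, 13.0 and 10.0 RPKM with DMSO and 8.55, 8.70 and 7.26 RPKM with FP54, without overlap. Its log2 fold change of −0.49 (SE 0.12, adjusted p = 0.00593 from limma) was under the cutoff of 0.5. The FOSL1 difference between the lines, 1.63 (SE 0.40, adjusted p = 0.0128 from limma's interaction), was lost without DMSO replicate 1 or 3. ATF3 rose from 2.73, 2.54 and 2.17 RPKM to 7.36, 7.85 and 7.31 RPKM, a log2 fold change of 1.56 (SE 0.11, adjusted p = 2.65e-06 from limma). ATF3 and JUN were thus called in the same 2 directions, and the effect on ATF3 differed between the lines by 2.63 (SE 0.20, adjusted p = 6.68e-07 from limma's interaction). BATF3, a JUN partner in dendritic cells, rose in NB4 cells by 1.53 on the log2 scale (SE 0.16, adjusted p = 2.77e-05 from limma). BATF fell there by 0.96 (SE 0.14, adjusted p = 0.000315 from limma). The effect on BATF differed between the lines by −1.46 (SE 0.24, adjusted p = 0.000734 from limma's interaction). BATF3 was also called lower in MOLM-13 cells, at a log2 fold change of −1.52 (SE 0.44, adjusted p = 0.0399 from limma), but its libraries overlapped and the call was lost on leaving out either DMSO replicate 1, DMSO replicate 3, FP54 replicate 1 or FP54 replicate 3.

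Of 40 other immediate early genes, 34 were tested in MOLM-13 cells, with 5 called lower (14.7%, against 9.04% of all genes), 6 called higher (17.6%, against 9.3%) and a median log2 fold change of 0.04. In NB4 cells 27 were tested, with 4 called lower (14.8%, against 10.7%), 15 called higher (55.6%, against 18.6%) and a median of 0.54. The EGR1 relative EGR2 rose in both lines, from 1.38 ± 0.404 to 4.66 ± 1.19 RPKM (SD, n = 3) in MOLM-13 cells (log2 fold change 1.69, adjusted p = 0.00397 from limma) and from 0.972 ± 0.108 to 2.75 ± 0.484 RPKM in NB4 cells (1.40, adjusted p = 4.67e-05 from limma). EGR3 rose by 1.53 in MOLM-13 cells (adjusted p = 0.00454 from limma) and was under the filter in NB4 cells. SGK1, a kinase gene, rose by 1.59 and 1.28 on the log2 scale. The nuclear receptor gene NR4A3 fell by 1.55 and the kinase gene PLK2 fell by 1.25 in MOLM-13 cells. GADD45A, a growth arrest gene, fell by 0.77 in MOLM-13 cells and rose by 1.55 in NB4 cells, a difference of 2.32 (SE 0.23, adjusted p = 1.20e-05 from limma's interaction). ZFP36L1, whose product binds AU-rich elements, the small GTPase gene RHOB and the antiproliferative gene BTG2 rose in NB4 cells by 1.78, 1.76 and 1.67. MYC fell there by 0.94, KLF4 by 0.71 and ZFP36L2 by 0.65, and the call of KLF4 was lost without DMSO replicate 1 (−0.67) or FP54 replicate 3 (−0.48) and with a pseudocount of 1 (−0.45). EGR2, EGR3, NR4A3, SGK1, PLK2 and GADD45A kept their calls in MOLM-13 cells with each library left out.

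The list of kinases and factors upstream of FOS and EGR1 held RAS, RAF, MEK and MAP kinases, RSK and MSK kinases, and ELK, MRTF, CREB and MEF2 family factors. SRF itself was counted with the other immediate early genes above. Of the 32 genes in this list, 30 were tested in each line. In MOLM-13 cells 2 were called lower (6.67%, against 9.04% of all genes: HRAS, −0.93, and MEF2D, −0.69) and MAP2K3 was called higher (0.58), and 0 of these 3 calls were made with every library left out in turn. In NB4 cells 0 were called lower and 3 higher (10.0%, against 18.6% of all genes), RPS6KA2 (2.34), RPS6KA5 (0.64) and MAPK3 (0.55). RPS6KA2, an RSK gene, rose from 0.880, 0.728 and 0.857 RPKM to 4.79, 4.48 and 4.42 RPKM, and passed the filter only through the FP54 libraries. The calls of RPS6KA5 and MAPK3 were lost with median-ratio scaling (0.46 and 0.36), quantile normalization (0.15 and 0.42) and a pseudocount of 1 (0.39 and 0.49), and that of MAPK3 without DMSO replicate 3 (0.48). The medians were 0.02 and 0.19.

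Genes that damp MAP kinase signaling, the DUSP phosphatases and the SPRY and SPRED inhibitors, numbered 16 beside DUSP1. In MOLM-13 cells 10 were tested, with 3 called lower (SPRY1, −1.04, DUSP7, −0.92, and SPRED1, −0.71) and 1 higher (DUSP22, 0.59), and DUSP7 alone kept its call with every library left out. These are 30.0% and 10.0% of those tested, against 9.04% and 9.3% of all genes. In NB4 cells 12 were tested, with 0 called lower and 4 higher (33.3%, against 18.6%), DUSP6 (1.02), DUSP5 (0.86), DUSP2 (0.73) and DUSP10. DUSP6, a MAP kinase phosphatase gene, rose from 58.2, 48.2 and 49.1 RPKM to 108, 99.2 and 107 RPKM. The medians were −0.24 and 0.29.

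Of 16 genes known as AP-1 targets, 14 were tested in MOLM-13 cells, with 2 called lower (14.3%, against 9.04% of all genes), 3 called higher (21.4%, against 9.3%) and a median of 0.34. In NB4 cells 13 were tested, with 0 called lower (10.7% of all genes), 8 called higher (61.5%, against 18.6%) and a median of 0.79. MMP9, a matrix protease gene, rose from 0.843 ± 0.0827 to 4.06 ± 0.425 RPKM (SD, n = 3) in MOLM-13 cells (log2 fold change 2.14) and from 196 ± 36.1 to 468 ± 16.2 RPKM in NB4 cells (1.27). In MOLM-13 cells it passed the filter only through the FP54 libraries. The chemokine gene CCL2 rose by 1.38 in MOLM-13 and by 2.46 in NB4 cells, and the cytokine gene IL1B by 0.65 and 2.15. VEGFA rose in NB4 cells from 8.51 ± 0.815 to 39.1 ± 2.28 RPKM, a log2 fold change of 2.19. In MOLM-13 cells the cyclin gene CCND1 fell by 1.16 and the urokinase receptor gene PLAUR by 0.55. Of these calls in MOLM-13 cells, CCL2, MMP9 and CCND1 were made with each library left out, while those of IL1B and PLAUR were each lost on leaving out any of 4 of the 6 libraries.

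**Figure D4:**
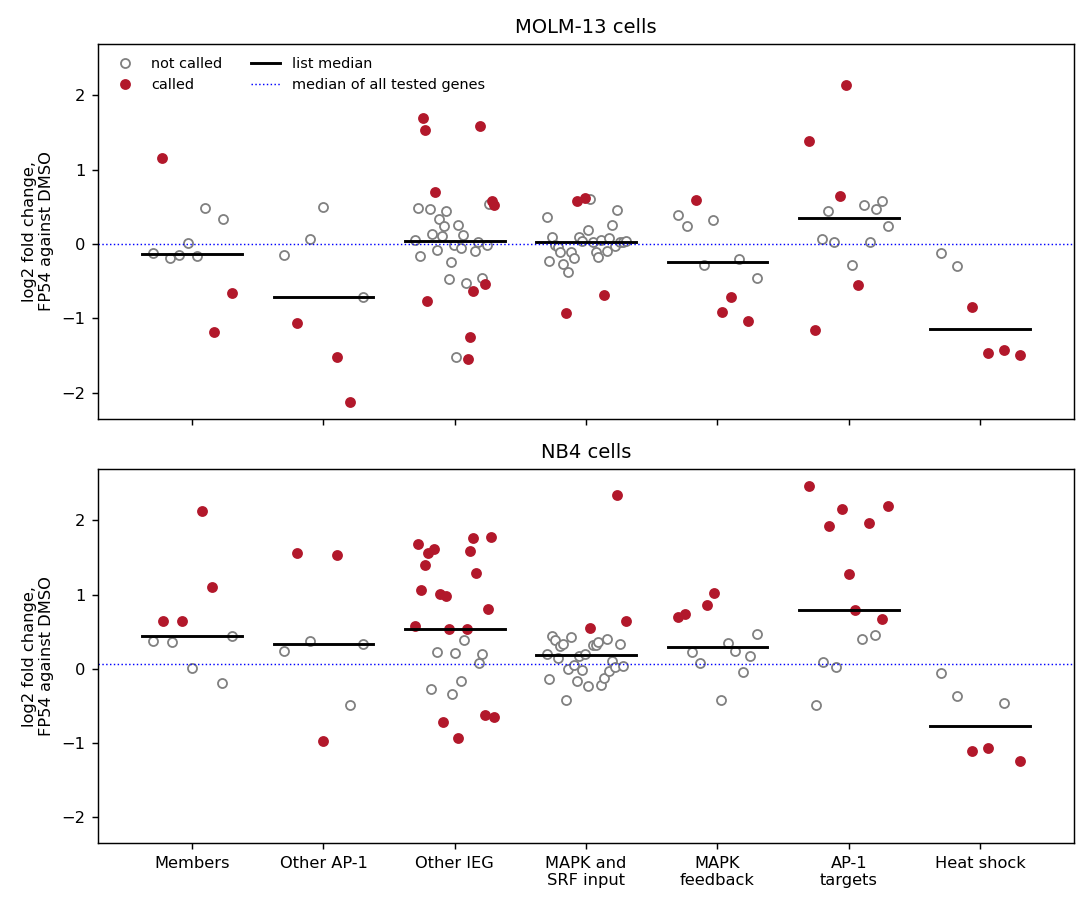
Log2 fold change of FP54 against DMSO for each tested gene of 7 lists in MOLM-13 cells (top) and NB4 cells (bottom), filled where the gene was called, with black bars at list medians and a dotted line at the median of all tested genes. The NB4 medians of the other AP-1 genes (0.33), other immediate early genes (0.54) and AP-1 targets (0.79) lie above the dotted line at 0.07, and the heat shock medians lie below it in both lines (−1.14 and −0.76).

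Over these 5 lists, 95 of 112 genes were tested in MOLM-13 cells, with 15 called lower (15.8%, against 9.04% of all genes) and 12 higher (12.6%, against 9.3%). In NB4 cells 89 were tested, with 5 called lower (5.62%, against 10.7%) and 32 higher (36.0%, against 18.6%). Of the called genes, BATF3, NR4A3, SPRY1, MMP9 and CCND1 in MOLM-13 cells and EGR2, SGK1 and RPS6KA2, among others, in NB4 cells had a mean under 1 RPKM in one treatment and passed the filter only through the treatment in which they were higher. With median-ratio scaling the NB4 counts were 10 and 26. In MOLM-13 cells the number called higher was 7 without DMSO replicate 1, 5 without DMSO replicate 3, 5 without FP54 replicate 1 and 7 without FP54 replicate 3, and the number called lower was 9 without DMSO replicate 3 and 10 without FP54 replicate 1.

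Other measures moved with the treatment, and their part in the members' values was not tested. In NB4 cells the share of reads from 13 mitochondrial genes was 2.74 to 3.09% with DMSO and 1.98 to 2.19% with FP54, and 14419 to 15048 genes were above 0 with DMSO and 16273 to 16618 with FP54, in the shallower libraries. In MOLM-13 cells FP54 replicate 2, the shallowest library, had the lowest mitochondrial share at 0.707%, against 1.21 to 1.70% in the other 5, and the fewest genes above 0, at 13361. Heat shock genes, which like immediate early genes respond to the handling of cells, were tested for 6 of 8 in each line, and 4 were called lower in MOLM-13 cells (3 of them with each library left out), against 9.04% of all genes, and 3 in NB4 cells, against 10.7%. HSPH1, HSPA8 and HSPB1 had log2 fold changes of −1.50, −1.47 and −1.42 in MOLM-13 cells, and HSPH1, HSP90AA1 and HSPA8 of −1.24, −1.10 and −1.07 in NB4 cells. Their summed level was 695 to 934 RPKM with DMSO and 279 to 507 with FP54 in MOLM-13 cells, and 1293 to 1414 and 643 to 685 in NB4 cells, with HSP90AA1 the most abundant in every library. Of the 10 myeloid markers, MPO fell in both lines (−2.06 and −0.96) and ITGAM, CSF3R and PTPRC rose in both, as CSF1R did in MOLM-13 cells. The MOLM-13 call of PTPRC was lost on leaving out any library but DMSO replicate 2. Their summed level was 906 to 1005 RPKM with DMSO and 1020 to 1283 with FP54 in MOLM-13 cells, where LYZ was the most abundant, and 2223 to 2471 and 1258 to 1327 in NB4 cells, where MPO was. The 10 markers of other cell types summed to 26.8 to 29.9 RPKM with DMSO and 42.2 to 44.5 with FP54 in MOLM-13 cells, nearly all of it PECAM1, and to 16.5 to 17.3 and 25.0 to 27.8 in NB4 cells, where EPCAM or CD3D was the most abundant. The mean level of 415 olfactory receptor genes, which blood cells hardly express, was 0.00169 to 0.00373 RPKM with DMSO and 0.0497 to 0.0548 RPKM with FP54 in NB4 cells. Subtracting this level from each library changed 0 of the members' calls in either line, and the adjusted p of the IER3 difference between lines was then 0.0526. FTO mRNA itself had log2 fold changes of −0.0049 (SE 0.21, adjusted p = 0.989 from limma) in MOLM-13 and −0.41 (SE 0.11, adjusted p = 0.0119 from limma) in NB4 cells, under the cutoff in both. In NB4 cells it was −0.60 with median-ratio scaling and −0.74 with quantile normalization, past the cutoff in either case.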

How the data were processed

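Of 22 samples, the 12 RNA-seq libraries of both lines were used. The 10 m6A-seq and polysome samples were not used here. By the study's methods, the authors purified poly(A) RNA, trimmed reads with Cutadapt 4.8, removed duplicates with Clumpify, aligned to hg38 with STAR 2.7.11b, counted on protein-coding genes with featureCounts 2.0.3 and deposited RPKM for 20411 genes. The gene length, library total and strand setting behind the RPKM are not given in the sources used here. Exon lengths of GENCODE gene models (release 44) gave whole reads, within 0.05 reads or 0.02% of the value, in all 6 libraries of MOLM-13 cells for 20068 of 20330 genes, and in those of NB4 cells for 20042. On these reads, limma-voom called 1963 genes in the first line and 2931 in the second.

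Log2(RPKM + 0.1) was fitted with limma 3.58.1 in R 4.3.3 (eBayes with a trend, mean RPKM of at least 1), with an interaction over 12 libraries for the difference between lines. Tables and figures were made with Python 3.11.15, numpy 2.4.6, pandas 2.3.3 and matplotlib 3.10.9. The script was tested on simulated data.

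The members and lists were chosen with earlier results of these data known. Beside the members and FTO, up to 3 genes with the largest decrease and 3 with the largest increase were named per list and line, among called genes whose adjusted p was under 0.05 and whose groups did not overlap, and the 3 genes most like FOS, JUN and EGR1. BATF3, MYC, ZFP36L1 and ZFP36L2 in MOLM-13 cells, FOSL1 in NB4 cells, DUSP10 and markers outside this rule were named after their values were seen. Some list genes are counted but not reported by themselves here. Alternatives were pseudocounts of 1 and 0.01, no filter, a filter at 5 RPKM, scaling by median ratios, normalization by quantiles, a block for the replicate number, no trend, limma-voom, subtraction of the olfactory receptor level, 2 other cutoffs and leaving out each library.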

Additional observations from a re-analysis of the deposited data

Results flagged for a closer look

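The effect of FP54 differed between NB4 and MOLM-13 cells for 4 members, by limma's interaction over 12 libraries. For JUN the NB4 effect was higher by 2.28 on the log2 scale (adjusted p = 1.94e-05), with all 3 FP54 libraries below all DMSO libraries in MOLM-13 cells and above them in NB4 cells. For JUND it was higher by 1.11 (adjusted p = 0.00145), with the same arrangement of the libraries. For IER3 it was higher by 1.63 (adjusted p = 0.0475), on as few as 5 reads in a NB4 library, and IER3 passed the filter in that line only through the FP54 libraries. The IER3 difference was lost in 6 of 9 alternatives with all libraries. For FOSL2 it was higher by 0.63 (adjusted p = 0.0262). The FOSL2 difference did not pass with median-ratio scaling. It was also lost (adjusted p from 0.0560 to 0.0886) when any library number but DMSO replicate 1 was left out of both lines.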

How the results depend on the processing

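No member changed direction while called. With median-ratio scaling the log2 fold changes of FOSL2 in MOLM-13 cells (−0.010), of IER2 in NB4 cells (−0.19) and the IER2 difference between lines (−0.0051) changed sign, as did FOS (−0.11), DUSP1 (−0.15) in NB4 cells and the DUSP1 difference (−0.022) with quantile normalization. The cause was not tested.

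Members called higher in MOLM-13 cells numbered 0 with no filter and without a trend, and 0 to 1 with a library left out. Members called lower there numbered 1, and higher in NB4 cells 2, at the cutoff of p below 0.05 and a log2 change of 1, and the latter were also 2 with median-ratio scaling. In the 5 lists, MOLM-13 counts were 8 lower and 7 higher with a filter at 5 RPKM, 8 and 5 at the cutoff with a log2 change of 1, and 9 to 14 lower and 5 to 17 higher with a library left out. NB4 counts were 3 lower with a pseudocount of 1, 3 lower and 17 higher with a filter at 5 RPKM (fewer genes tested), 10 lower with median-ratio scaling, 8 lower with quantile normalization, and 0 lower and 20 higher at the cutoff with a log2 change of 1. Differences between lines numbered 1 lower and 2 higher with median-ratio scaling, and 2 to 4 higher with a library left out.

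With a library left out, log2 fold changes ran from −0.33 to 0.051 for DUSP1, from −0.082 to 0.070 for FTO and from −0.074 to 0.098 for FOSL2 in MOLM-13 cells, from −0.13 to 0.18 for IER2 in NB4 cells, and differences from −0.86 to 0.047 for EGR1 and from −0.034 to 0.38 for IER2.

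Same-numbered libraries of DMSO and FP54 had correlations of deviations of −0.26, −0.13 and −0.06 in MOLM-13 and −0.14, 0.07 and 0.12 in NB4 cells. In MOLM-13 cells different numbers correlated best. The values were 0.59 for DMSO replicate 1 with FP54 replicate 3, 0.49 for 2 with 1 and 0.47 for 3 with 2. With 3 libraries a group, these values cannot show whether samples were handled in pairs, and the main fit treats them as unpaired. With the replicate number as a block, members called were 2 lower and 1 higher in MOLM-13 cells and 0 lower and 4 higher in NB4 cells, and 3 differences passed, without IER3. The lists gave 14 lower and 10 higher in MOLM-13 and 5 and 32 in NB4 cells.

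Depth limits the members with few reads per library, which were IER3 (5 to 51), FOSB (11 to 20), DUSP1 (24 to 48) and FOS (57 to 90) in NB4 cells and IER3 (19 to 117), DUSP1 (21 to 73) and FOSB (50 to 175) in MOLM-13 cells.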
